A study of Mus musculus with 8 samples.

Results

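The mitosis genes are 45 genes whose products carry a cell through chromosome condensation, spindle assembly, chromosome segregation and cytokinesis. They were chosen by name from what their products do, and all 45 were found among the 55401 genes of the deposited tables. AtT-20 cells are a mouse pituitary tumour line with the character of corticotropes, the cells that make the hormone precursor Pomc. All 8 libraries came from AtT-20 cells of genotype ER-Pax7, in which Pax7, a pioneer factor known for giving pituitary cells melanotrope identity, is introduced as a form that tamoxifen activates. By their labels the libraries differ only in hours of tamoxifen, with 2 libraries each at 0, 24, 48 and 72 h. The comparisons ask whether the mitosis genes changed at 24, 48 or 72 h of tamoxifen against 0 h, while Pax7 was active. Vehicle for matched hours was not analysed here, and the action of Pax7, the drug and time in culture cannot be told apart. Whether replicates were separate cultures is not stated, so the p-values refer to the spread among these libraries alone, and that spread may be technical.

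Mitosis is driven by the kinase CDK1 bound to a cyclin B, which is switched on by CDC25 phosphatases and switched off when the anaphase-promoting complex (APC/C) marks cyclin B for destruction. The genes for this machinery are held silent in resting cells and are transcribed together late in the cell cycle, when the MuvB complex joins B-MYB and FOXM1 at a short promoter element called the cell cycle homology region (CHR), often near CCAAT boxes bound by NF-Y. Their combined transcript level in a culture tracks how many cells are near division. In a bulk sample, fewer cells in mitosis and less mitotic RNA per cell cannot be told apart.

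No member passed the test at any time. Of the 43 members with a mean signal of at least 1, 0 were called at 24 h, 48 h or 72 h against 0 h, and 0 at 72 h against 24 h, at a limma adjusted p of 0.05 over 9606 genes. At an unadjusted p of 0.05 the counts were 5, 1 and 3 members at 24, 48 and 72 h, and 5 at 72 h against 24 h, which are 11.6%, 2.33%, 6.98% and 11.6% of the members. Over all tested genes the unadjusted shares were 13.2%, 10.5%, 15.7% and 13.6%. Those at 24 h and at 72 h against 24 h were near the shares of the members. The background of genes called at the adjusted p was 0.229% of tested genes at 24 h (22 genes), 0.552% at 48 h (53 genes) and 2.01% at 72 h (193 genes), and 0.0208% at 72 h against 24 h (2 genes). A joint F test of 24, 48 and 72 h against 0 h called 0 members and 0.344% of all genes (33 genes). The largest mean difference of any tested member was that of Cdc20 at 24 h, a ratio of 1.37 between the group means. Every difference given below on the log2 scale is of log2(signal + 1). That scale understates the fold change of genes with low signal, so these differences are not the log2 of such ratios. The 15 alternative ways of processing each left the count of called members at 0, while they called 2 to 104 of all genes at 24 h, 2 to 98 at 48 h and 9 to 320 at 72 h.

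The promoters show what the members share apart from their function, and 7 of them, of genes described below, are printed as examples. Of a gene's alternative starts, the one with most CHR cores in the printed bases was used. Over the members' promoters CHR matches were most frequent 10 to 30 bases after the start, which the printed bases leave out. The spacing shown is therefore not typical of the members. Each stretch is the 100 bases before the RefSeq transcription start, written 5′ to 3′ in the direction of the gene from GRCm38.p6. Capitals mark a CHR core (TTTGAA or its reverse complement TTCAAA) or a CCAAT box (CCAAT or its reverse complement ATTGG). The stretches are chr10:69352913-69353012 on the reverse strand for Cdk1, chr4:118437344-118437443 on the reverse strand for Cdc20, chr2:164769829-164769928 on the forward strand for Ube2c, chr11:99024190-99024289 on the reverse strand for Top2a, chr19:37376282-37376381 on the forward strand for Kif11, chr7:80294376-80294475 on the forward strand for Prc1 and chr11:117849137-117849236 on the forward strand for Birc5. Birc5 is shown as a member with neither motif in these bases.
Cdk1: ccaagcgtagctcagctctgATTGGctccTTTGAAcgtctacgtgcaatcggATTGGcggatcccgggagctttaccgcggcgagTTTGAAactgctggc
Cdc20: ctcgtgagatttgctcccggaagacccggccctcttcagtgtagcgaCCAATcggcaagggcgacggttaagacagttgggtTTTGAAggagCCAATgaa
Ube2c: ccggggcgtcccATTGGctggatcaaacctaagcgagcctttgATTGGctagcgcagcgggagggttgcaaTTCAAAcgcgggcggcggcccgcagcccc
Top2a: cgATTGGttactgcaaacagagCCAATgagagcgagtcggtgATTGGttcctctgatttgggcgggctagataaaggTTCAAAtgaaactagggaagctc
Kif11: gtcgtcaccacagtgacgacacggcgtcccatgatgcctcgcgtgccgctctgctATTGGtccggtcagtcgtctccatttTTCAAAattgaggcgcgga
Prc1: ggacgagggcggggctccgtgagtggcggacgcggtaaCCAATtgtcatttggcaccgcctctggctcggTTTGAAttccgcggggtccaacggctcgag
Birc5: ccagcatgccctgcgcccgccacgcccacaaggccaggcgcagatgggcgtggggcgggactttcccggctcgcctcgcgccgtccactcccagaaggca

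Of the 45 members, 37 had a RefSeq promoter in the table used, covering 250 bases before to 50 after the start. The entries for Aurkb, Ccna2, Cdc25c, Foxm1, Incenp, Kif20a, Smc4 and Tpx2 were missing from it. A CHR core, searched as TTTGAA with its reverse complement TTCAAA and as TTCGAA, which is its own reverse complement, was found in 29 of these 37 members (78.4%), against 21.7% of all 27025 genes with a promoter of that length. Close to the start, within 50 bases on either side, it was found in 26 members (70.3%), against 6.12% of all genes. A CCAAT box was found in 30 members (81.1%), against 41.1% of all genes, and both motifs in 26 members (70.3%), against 8.61%. A CHR core and a CCAAT box can share at most 1 base. Member promoters had a mean GC content of 59.5%, against 53.6% for all genes. Within promoters of 56 to 65% GC, a CHR core stood in 76.2% of the 21 members and 14.4% of 6361 genes. Among further mitosis genes a CHR core was found in 32 of 51 (62.7%), near the start in 52.9%, a CCAAT box in 62.7% and both in 43.1%. Over the S phase genes listed for comparison, CHR cores were found in 5 of 19 (26.3%) and CCAAT boxes in 12 of 19 (63.2%). A match is a description of letters, not a bound site.

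**Figure D1:**
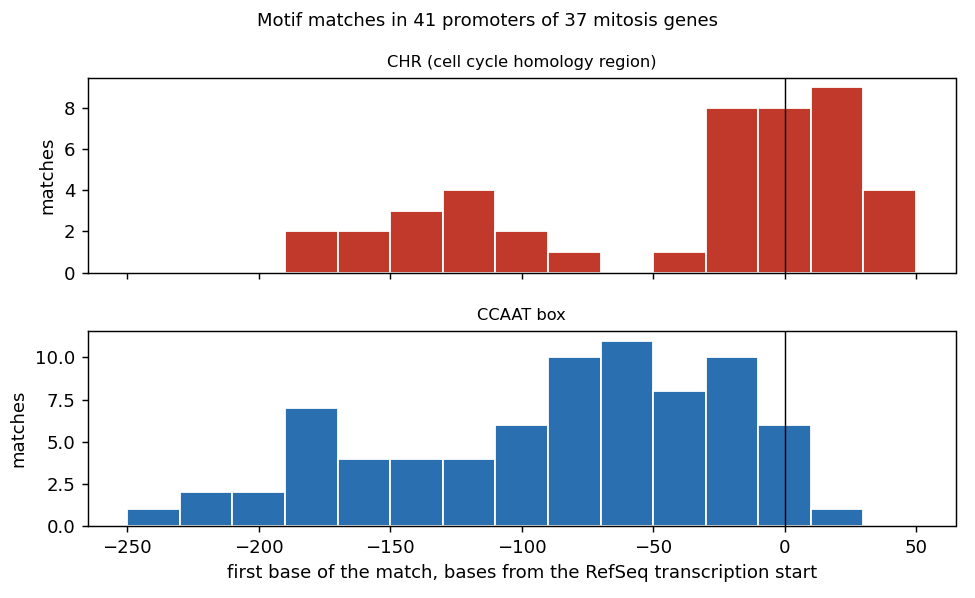
Promoter motifs of the mitosis genes: number of CHR and CCAAT matches (y axis) by distance in bases from the RefSeq start (x axis) over the members' promoters. CCAAT matches are most frequent 70 to 50 bases before the start (11 of 76) and CHR matches 10 to 30 bases after it (9 of 44). The 37 members have 41 promoters, so bases shared by alternative starts are counted more than once, and the matches stand for 69 distinct CCAAT sites and 40 distinct CHR sites.

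The differences of members with and without a CHR core were set side by side. The median log2 difference at 24 h was 0.04 over the 29 tested members with a core and 0.04 over the 7 without. At 48 h the medians were -0.02 with a core and 0.03 without, at 72 h they were -0.04 and -0.03, and at 72 h against 24 h they were -0.08 and -0.04.

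The values are taken as a signal, the mean normalized read coverage over a gene's merged exons. Only on that reading are levels of different genes compared per length. The values of Ncapd2, described below, leave the reading uncertain. Read depth is not given, and neither is the rule of scaling. Summed signal ran from 164236 to 178548 per library, and 9516 to 9608 genes had a signal of at least 1. Pax7, which includes any reads of the introduced form over its exons, stood at 12.6 to 14.4 in every library. The label of corticotrope cells was checked on 6 markers, none of them at 0. Their summed signal was 535 to 592 at 24 and 48 h and 665 to 729 at 0 and 72 h. Pomc makes up most of it, at 499 to 679. Tbx19, Neurod1 and Pcsk1 stood at 16.3 to 23.2, 3.93 to 5.08 and 15.4 to 24.5. Crhr1 and Nr4a1 were low, at 0.0354 to 0.129 and 0.333 to 0.701. Of the markers of other cell types, those of fibroblasts summed to 0.233 to 0.555 with Col1a2 and Lum at 0 in all libraries, those of immune cells to 0.575 to 0.741 with Cd3e at 0, and those of endothelium to 0.0472 to 0.0826 with Kdr at 0. Of the 4 melanotrope markers, Drd2 was at 0 in all libraries, and Pax7 makes up most of their summed signal of 13.3 to 15.8. Oacyl had 0.0129 and 0.0171 before tamoxifen, 0.237 and 0.374 after 24 h, 0.438 and 0.483 after 48 h, and 0.618 and 0.635 after 72 h. Pcsk2 had 0.325 and 0.294 before tamoxifen, 0.622 and 0.590 after 24 h, 0.802 and 0.710 after 48 h, and 0.845 and 0.822 after 72 h. For both genes every library with tamoxifen was above both 0 h libraries, and both lie below the level needed for testing. The part of these marker levels in the results below was not tested.

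The mitosis genes were all detected in every library, at a median mean signal of 3.53. Of the 45, 4 averaged at least 10, 8 lay from 5 to 10, 24 from 2 to 5, 7 from 1 to 2, and 2 below 1. The order opened with Ncapd2 at 80.4, Top2a at 22.9, Mki67 at 12.8 and Cdk1 at 10.99. The signal of Ncapd2 cannot be separated from that of the overlapping genes Scarna10 and Gm28967, so its rank may not be its own. Ncapd2 and Top2a did not overlap with their neighbours in this order in any library. Mki67 and Cdk1 overlapped, with the lowest Mki67 value at 12.02 and the highest Cdk1 value at 12.5. In replicate 1 at 24 h Cdk1 (12.46) was above Mki67 (12.41). Bub3 followed Cdk1 with overlapping values. The order closed with Gtse1 at 0.908 and Foxm1 at 0.609, both under the level needed for testing. In 7 members the highest library was over 1.4 times the lowest. The coefficient of variation over the 8 libraries had a median of 6.42% among the 43 tested members and 7.52% among all tested genes.

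**Figure D2:**
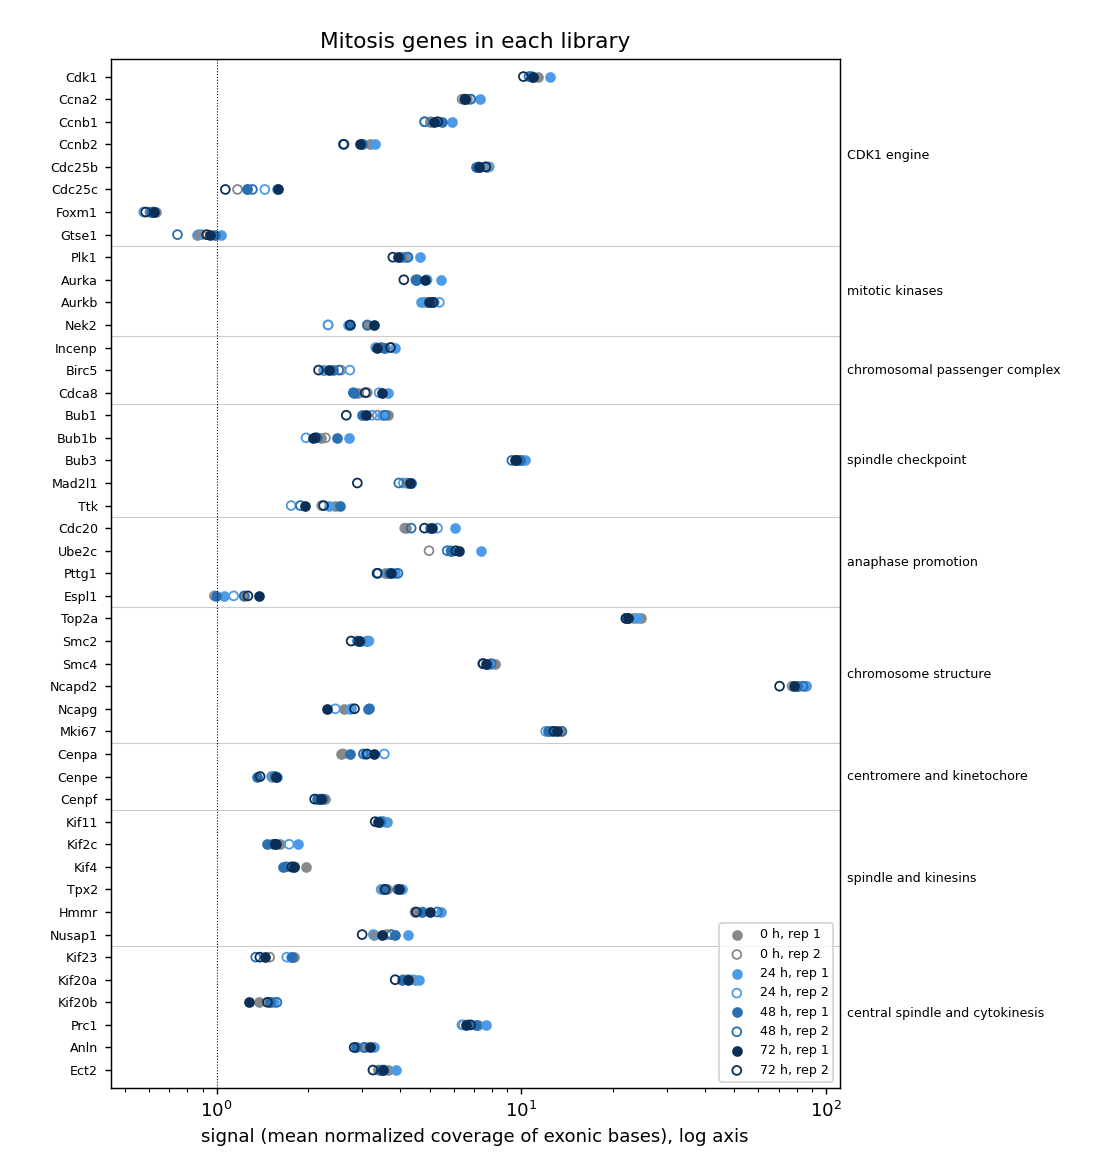
Signal of the mitosis genes in every library (log axis), grouped by role, with one point per library at 0, 24, 48 and 72 h of tamoxifen. Points of 1 gene lie close together beside the spread between genes, which runs from 0.609 for Foxm1 to 80.4 for Ncapd2. The signal of Ncapd2 cannot be separated from that of Scarna10 and Gm28967.

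The drivers of entry into mitosis varied by different amounts, from 1.10-fold between the highest and lowest library for Foxm1 to 1.49-fold for Cdc25c. Cdk1 (chromosome 10, 69335146 to 69352938, GRCm38), the kinase at the centre of mitotic entry, had signals of 11.4 and 10.8 before tamoxifen, 12.5 and 10.8 after 24 h, 10.9 and 10.6 after 48 h, and 10.9 and 10.2 after 72 h. The highest of these came from replicate 1 at 24 h, the lowest came from replicate 2 at 72 h, and every later group overlapped with the 0 h group. Cdk1 differed by -0.07 on the log2 scale (SE 0.08, limma adjusted p = 0.755) at 72 h against 0 h. Ccnb1, its cyclin B partner, had 5.01 and 5.04 before tamoxifen, 5.91 and 4.81 after 24 h, 5.500 and 4.82 after 48 h, and 5.15 and 5.31 after 72 h. Both 0 h values lay inside the range of the 24 h values, and both 72 h libraries were slightly above both 0 h libraries. The forkhead factor Foxm1, which drives transcription of this gene group, was low throughout, with 0.632 and 0.604 before tamoxifen, 0.617 and 0.576 after 24 h, 0.609 and 0.621 after 48 h, and 0.625 and 0.585 after 72 h. Foxm1 and Gtse1, a microtubule-associated p53 regulator, were left out of the main test. In a fit without a filter on low values their limma adjusted p-values were 0.907 or more. They were also part of an alternative fit with a lower filter, which called no member. The S and G2 cyclin Ccna2 ranged from 6.39 to 7.31, the cyclin Ccnb2 from 2.61 to 3.31, and the CDK1-activating phosphatases Cdc25b and Cdc25c from 7.08 to 7.85 and 1.07 to 1.59. Exons of Exosc9, which had a signal of 6.51 to 7.21, share 12.5% of the exonic bases of Ccna2. Those of Gm3550, which had only 0.0318 to 0.0877, share 12.7% of Cdc25c. How reads over these shared bases were assigned is not known.

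Among the mitotic kinases, Plk1, which acts in centrosome maturation and spindle assembly, had 4.12 and 4.22 before tamoxifen, 4.65 and 4.19 after 24 h, 4.01 and 4.25 after 48 h, and 3.95 and 3.79 after 72 h. Its 72 h libraries were the lowest, below both 0 h libraries, and the 72 h difference was -0.09 on the log2 scale (SE 0.06, limma adjusted p = 0.527). Aurka, the spindle pole kinase, had 4.53 and 4.498 before tamoxifen, 5.44 and 4.91 after 24 h, 4.504 and 4.55 after 48 h, and 4.83 and 4.12 after 72 h. At 24 h Aurka was above both 0 h libraries in both, with a difference of 0.16 on the log2 scale (SE 0.07, limma adjusted p = 0.403), while the 72 h libraries lay on either side of the 0 h values. Aurkb, the kinase of the chromosomal passenger complex, had 4.904 and 4.798 before tamoxifen, 4.698 and 5.38 after 24 h, 5.11 and 5.18 after 48 h, and 4.97 and 5.11 after 72 h. Replicate 1 at 24 h was the lowest library for Aurkb and replicate 2 at 24 h the highest. The centrosomal kinase Nek2 ranged from 2.32 to 3.29, with its 2 libraries at 0 h at 3.12 and 2.32.

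The chromosomal passenger complex places Aurkb on centromeres and then on the central spindle. Its member Birc5 (survivin) had 2.23 and 2.56 before tamoxifen, 2.26 and 2.74 after 24 h, 2.41 and 2.52 after 48 h, and 2.34 and 2.16 after 72 h, and every later group overlapped with 0 h. Cdca8 (borealin; chromosome 4, 124918465 to 124939311) had 2.91 and 3.12 before tamoxifen, 3.66 and 3.41 after 24 h, 2.82 and 2.81 after 48 h, and 3.498 and 3.08 after 72 h. Both 24 h libraries were above both 0 h libraries, both 48 h libraries were below them, and the 72 h libraries straddled the upper 0 h value. Cdca8 averaged 3.54 ± 0.174 at 24 h and 3.02 ± 0.149 at 0 h (SD, n = 2 each), a difference of 0.18 on the log2 scale (SE 0.06, limma adjusted p = 0.315). The scaffold Incenp ranged from 3.33 to 3.84.

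The spindle checkpoint delays anaphase until every kinetochore is attached. Bub1 (chromosome 2, 127801122 to 127831865), its kinase at the kinetochore, had 3.65 and 3.37 before tamoxifen, 3.497 and 3.23 after 24 h, 2.99 and 3.57 after 48 h, and 3.09 and 2.66 after 72 h. Both 72 h libraries were below both 0 h libraries, and the other groups overlapped with 0 h. Bub1 averaged 2.88 ± 0.298 at 72 h and 3.51 ± 0.197 at 0 h (SD, n = 2 each), a difference of -0.22 on the log2 scale (SE 0.08, limma adjusted p = 0.273) with a 95% interval of -0.42 to -0.02. Mad2l1, which inhibits Cdc20, had 4.26 and 4.21 before tamoxifen, 4.33 and 4.102 after 24 h, 4.36 and 3.96 after 48 h, and 4.302 and 2.896 after 72 h. Of the 8 values 7 lay between 3.96 and 4.36, and replicate 2 at 72 h alone stood at 2.90. The difference at 72 h, -0.20 on the log2 scale (SE 0.13, limma adjusted p = 0.512), rests on that library: without it the value was 0.02. Ttk (Mps1), Bub1b (BubR1) and Bub3 complete the list, with ranges of 1.76 to 2.55, 1.97 to 2.71 and 9.31 to 10.3. All 5 checkpoint members had lower mean values at 72 h than at 0 h on the log2 scale, where 46.7% of all tested genes did. The same held for 29 of all 43 tested members (67.4%), for 6 of 6 of chromosome structure and for 0 of 4 of anaphase promotion. Of the 5, 0 passed the test. Their median difference at 72 h was -0.11, where that of all 43 tested members was -0.04 and that of all tested genes was 0.01.

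The genes of anaphase promotion include the member with the largest difference at 24 h. Cdc20 (chromosome 4, 118432901 to 118437352), the activator that brings substrates to the APC/C, had 4.19 and 4.14 before tamoxifen, 6.08 and 5.31 after 24 h, 5.02 and 4.35 after 48 h, and 5.08 and 4.81 after 72 h. All 6 libraries with tamoxifen were above both 0 h libraries, and the 24 h libraries were the highest. Cdc20 averaged 5.69 ± 0.545 at 24 h and 4.17 ± 0.0344 at 0 h (SD, n = 2 each). On the log2(signal + 1) scale the difference was 0.37 (SE 0.08, limma adjusted p = 0.148) with a 95% interval of 0.19 to 0.55. Its F test gave the smallest p of the members, with a limma adjusted p of 0.211. Over the 15 alternatives the 24 h difference of Cdc20 ran from 0.29 to 0.45 and its limma adjusted p from 0.0627 to 0.532.

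Ube2c (chromosome 2, 164769898 to 164778822), the ubiquitin-conjugating enzyme of the APC/C, had 5.86 and 4.98 before tamoxifen, 7.36 and 5.87 after 24 h, 5.89 and 5.71 after 48 h, and 6.24 and 6.100 after 72 h. Both 24 h libraries and both 72 h libraries were above both 0 h libraries, though one 24 h library, at 5.872, barely exceeded the 0 h library at 5.865. The 24 h difference was 0.24 on the log2 scale (SE 0.10, limma adjusted p = 0.375). Of Ube2c's exonic bases 22.8% lie in exons of Tnnc2, whose own signal was only 0.0332 to 0.113. How reads over the shared bases were assigned is not known. Pttg1 (securin), the inhibitor of separase, had 3.57 and 3.36 before tamoxifen, 3.85 and 3.39 after 24 h, 3.67 and 3.94 after 48 h, and 3.73 and 3.37 after 72 h, with both 48 h libraries above both 0 h libraries and a 48 h difference of 0.11 on the log2 scale (SE 0.07, limma adjusted p = 0.686). Espl1 (separase), the protease that opens cohesin, ranged from 0.984 to 1.37. The median difference over the 4 genes was 0.15 at 24 h, 0.10 at 48 h and 0.15 at 72 h, where it was 0.04, -0.0045 and -0.04 over the 43 members.

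The genes of chromosome structure held the highest levels. Top2a, the topoisomerase that untangles sister chromatids, had 24.7 and 23.4 before tamoxifen, 24.1 and 22.1 after 24 h, 22.5 and 22.2 after 48 h, and 22.5 and 22.03 after 72 h. Both 48 h libraries and both 72 h libraries were below both 0 h libraries, and the 72 h difference was -0.11 on the log2 scale (SE 0.06, limma adjusted p = 0.467). Mki67, the chromosome surfactant used as a proliferation marker, had 13.5 and 12.7 before tamoxifen, 12.4 and 12.02 after 24 h, 12.2 and 13.6 after 48 h, and 13.1 and 12.8 after 72 h. At 24 h both libraries were below both 0 h libraries, and the 72 h difference was -0.01 on the log2 scale (SE 0.07, limma adjusted p = 0.961). Smc4, a core subunit of condensin, had 8.19 and 7.47 before tamoxifen, 7.897 and 7.502 after 24 h, 7.74 and 7.97 after 48 h, and 7.65 and 7.48 after 72 h, and its groups overlapped. Smc2, its partner, ranged from 2.76 to 3.16 and stood below 0 h in every 48 h and 72 h library. Ncapg, a subunit of condensin I, had 2.62 and 2.77 before tamoxifen, 2.75 and 2.45 after 24 h, 3.15 and 3.18 after 48 h, and 2.302 and 2.83 after 72 h. Both its 48 h libraries were above both 0 h libraries, with a 48 h difference of 0.17 on the log2 scale (SE 0.08, limma adjusted p = 0.502). Of Ncapg's exonic bases 13.4% lie in exons of Lcorl.

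Ncapd2 (chromosome 6, 125168007 to 125191701), another subunit of condensin I, had 81.2 and 77.4 before tamoxifen, 85.2 and 86.4 after 24 h, 80.2 and 84.1 after 48 h, and 78.3 and 70.4 after 72 h. Its mean of 80.4 compares with 3.004 for Smc2, 7.74 for Smc4 and 2.76 for Ncapg, the other condensin subunits among the members. Scarna10, the gene of a small nuclear RNA, shares 237 of the 6267 exonic bases of Ncapd2, and the annotated gene Gm28967 shares 235. The signal of Scarna10 was 1.90 to 1.92 times that of Ncapd2 in every library, and that of Gm28967 was 2.07 to 2.10 times. Among 147 pairs of a member and a gene near it, these were the only 2 whose ratio had a coefficient of variation under 2% over the libraries. The next were Ccna2 with Exosc9 (2.50%) and Kif20a with Cdc23 (3.82%), which also share exonic bases. The level of Ncapd2 cannot be separated from that of Scarna10 and Gm28967. The bases shared with them are 3.78% of the exonic bases of Ncapd2, and how coverage was assigned there is not known. A mean over all its exonic bases would not readily give such constant ratios from so small a share. The reading of the values as such a mean may therefore not hold for Ncapd2. Both 24 h libraries of Ncapd2 were above both 0 h libraries, one 72 h library was the lowest of the 8, and Ncapd2 differed by -0.21 on the log2 scale at 72 h against 24 h (limma adjusted p = 0.309).

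At the centromere, Cenpa (chromosome 5, 30666777 to 30674830), the histone H3 variant that marks centromeric chromatin, had 2.55 and 2.600 before tamoxifen, 3.06 and 3.55 after 24 h, 2.74 and 3.03 after 48 h, and 3.27 and 3.12 after 72 h. All 6 libraries with tamoxifen were above both 0 h libraries. Cenpa averaged 3.304 ± 0.349 at 24 h and 2.58 ± 0.0344 at 0 h (SD, n = 2 each), a difference of 0.27 on the log2 scale (SE 0.07, limma adjusted p = 0.204) with a 95% interval of 0.11 to 0.42. At 72 h it averaged 3.195 ± 0.111, a difference of 0.23 on the log2 scale (SE 0.07, limma adjusted p = 0.155). Cenpe, the kinetochore motor that aligns chromosomes, had 1.52 and 1.54 before tamoxifen, 1.58 and 1.51 after 24 h, 1.36 and 1.56 after 48 h, and 1.57 and 1.39 after 72 h. Every later group overlapped with 0 h, and the lowest values came from replicate 1 at 48 h and replicate 2 at 72 h. Cenpf, a large kinetochore protein, was the most even member, with a range from 2.097 to 2.27.

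Among spindle proteins, Kif11 (Eg5), the kinesin that pushes spindle poles apart, had 3.61 and 3.53 before tamoxifen, 3.599 and 3.51 after 24 h, 3.45 and 3.45 after 48 h, and 3.395 and 3.32 after 72 h. Both 48 h libraries and both 72 h libraries were below both 0 h libraries by small amounts, with a 72 h difference of -0.07 on the log2 scale (SE 0.04, limma adjusted p = 0.497). Tpx2, which activates Aurka on the spindle, had 3.61 and 3.51 before tamoxifen, 4.07 and 3.47 after 24 h, 3.54 and 3.93 after 48 h, and 3.95 and 3.57 after 72 h, and every later group overlapped with 0 h. Kif2c (MCAK), a microtubule depolymerase, had 1.61 and 1.53 before tamoxifen, 1.85 and 1.73 after 24 h, 1.46 and 1.54 after 48 h, and 1.56 and 1.56 after 72 h. Both 24 h libraries of Kif2c were above all 6 others, and the 24 h difference was 0.12 on the log2 scale (SE 0.05, limma adjusted p = 0.358). The chromokinesin Kif4 ranged from 1.65 to 1.96, and all 6 libraries with tamoxifen were below both 0 h libraries. Its 48 h difference was -0.11 on the log2 scale (SE 0.05, limma adjusted p = 0.466), and 15.1% of its exonic bases lie in exons of Pdzd11. The hyaluronan-binding spindle protein Hmmr and the microtubule-bundling protein Nusap1 ranged from 4.46 to 5.44 and from 3.003 to 4.25, each with its highest value in replicate 1 at 24 h.

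For the central spindle and cytokinesis, Prc1, the bundler of antiparallel microtubules, had 7.23 and 6.45 before tamoxifen, 7.66 and 6.38 after 24 h, 7.09 and 6.68 after 48 h, and 6.59 and 6.82 after 72 h. Replicate 1 of Prc1 was higher than replicate 2 at 0, 24 and 48 h. Of its exonic bases 11.1% lie in exons of Rccd1, which ranged from 3.42 to 5.55 with its highest value also in replicate 1 at 24 h. Kif20a, a midzone kinesin, had 4.47 and 4.09 before tamoxifen, 4.62 and 4.41 after 24 h, 4.06 and 4.25 after 48 h, and 4.23 and 3.85 after 72 h, and 29.3% of its exonic bases lie in exons of Cdc23. Anln, the actin-binding ring protein anillin, had 3.05 and 2.88 before tamoxifen, 3.29 and 3.08 after 24 h, 2.86 and 3.04 after 48 h, and 3.19 and 2.83 after 72 h. In both Kif20a and Anln the highest library was replicate 1 at 24 h and the lowest was replicate 2 at 72 h, and the groups at 72 h and 0 h overlapped for each. Ect2, the exchange factor that activates RhoA, ranged from 3.26 to 3.88, and the mitotic kinesins Kif23 and Kif20b from 1.34 to 1.797 and from 1.28 to 1.58. The 6 members of this role had median differences of 0.05 at 24 h, -0.01 at 48 h and -0.04 at 72 h.

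Taken as a list, the members lay close to the distribution of all tested genes. Their median log2 difference was 0.04 at 24 h, where the median of all tested genes was 0.01. The medians were -0.0045 over members and 0.0043 over all genes at 48 h, and -0.04 over members and 0.01 over all genes at 72 h. At an unadjusted p of 0.05 from limma, 5 of 43 members (11.6%) passed at 24 h, where 13.2% of all genes passed. The 5 were Cdca8, Cdc20, Ube2c, Cenpa and Kif2c, all higher. At 48 h, 1 of 43 (2.33%, Kif4, lower) passed, against a background of 10.5%. At 72 h, 3 of 43 (6.98%: Bub1, lower, and Cdc20 and Cenpa, higher) passed, against 15.7%. At 72 h against 24 h, 5 of 43 (11.6%: Plk1, Aurka, Smc2, Ncapd2 and Kif2c, all lower) passed, against 13.6%. For the F test the share was 6.98% of members (Cdca8, Cdc20 and Cenpa) and 13.9% of all genes. The member shares at 24 h and at 72 h against 24 h lay near their background. Whether the lower shares in the other comparisons differ from it was not tested.

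**Figure D3:**
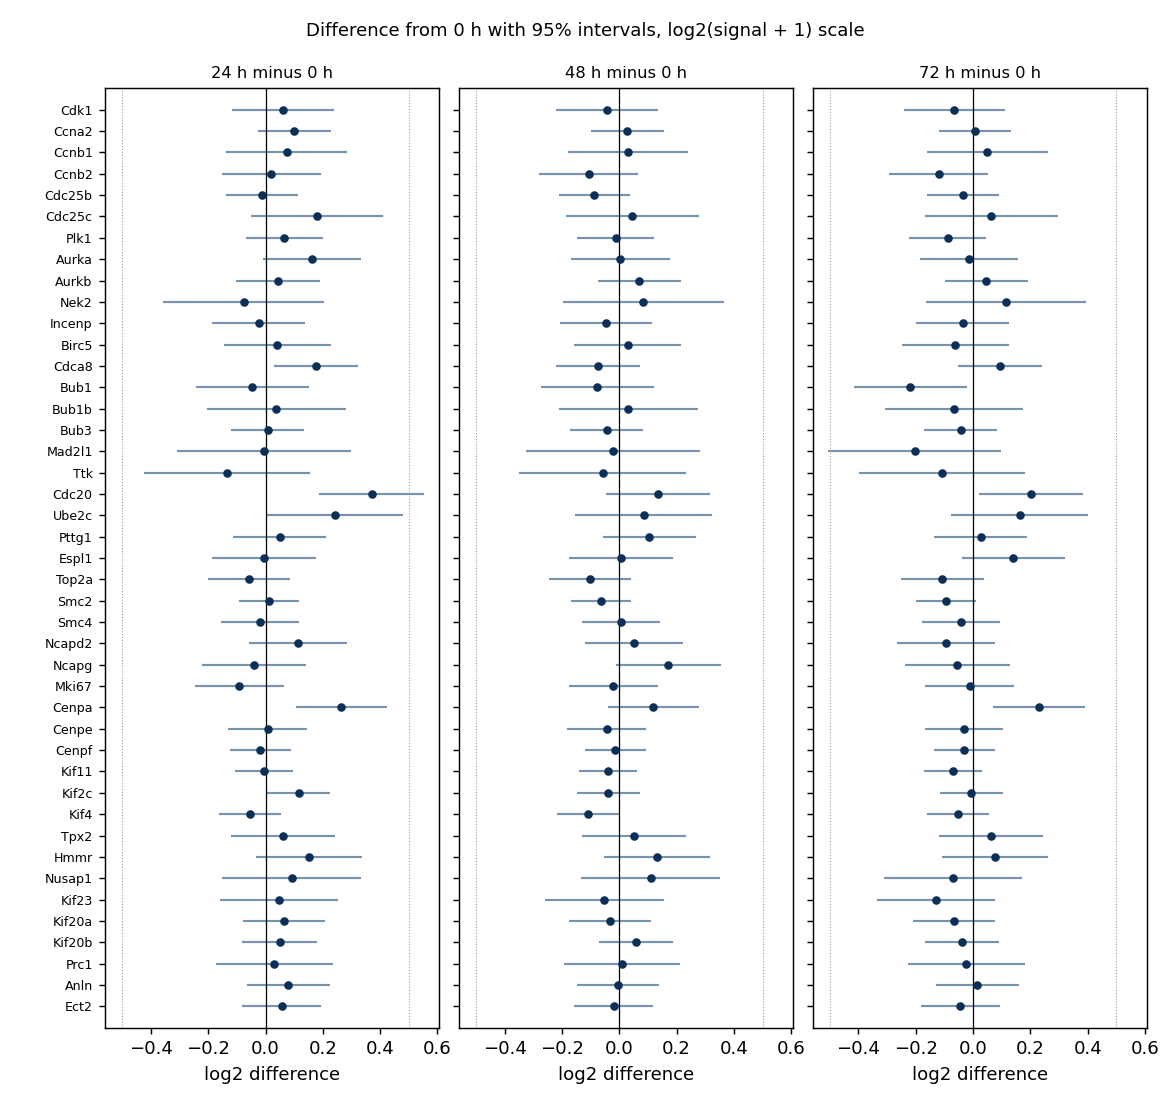
Differences of the 43 tested mitosis genes at 24, 48 and 72 h against 0 h on the log2(signal + 1) scale (x axis), with 95% limma intervals as bars and genes down the page by role. The interval reaching highest belongs to Cdc20 at 24 h (to 0.55) and the one reaching lowest to Mad2l1 at 72 h (to -0.51).

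The 95% interval lay within ±0.5 on the log2 scale for 42 of 43 members at 24 h (97.7%; all genes 95.6%), for 43 of 43 at 48 h (all genes 95.8%) and for 42 of 43 at 72 h (97.7%; all genes 94.9%). The exceptions were Cdc20 at 24 h, whose interval reached 0.55, and Mad2l1 at 72 h, whose interval reached -0.51. These intervals are for each gene alone and are on the log2(signal + 1) scale.

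Counts of groups that do not overlap lay on both sides of their background. At 24 h both libraries were above both 0 h libraries for 12 of 43 members (27.9%; 24.4% of all genes) and below them for Mki67 and Kif4 (4.65%; 17.8% of all genes). At 48 h, 8 members (18.6%) were above and 8 (18.6%) below, where 24.3% and 22% of all genes were. At 72 h, 7 members (16.3%; 27.4% of all genes) were above and 10 (23.3%; 22.4% of all genes) below.

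**Figure D4:**
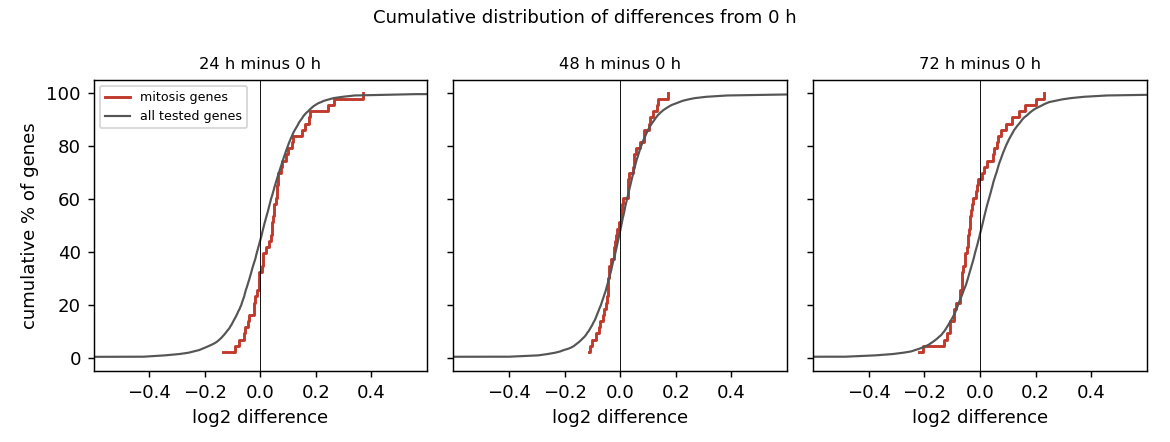
Cumulative share of genes (y axis) by log2 difference at 24, 48 and 72 h against 0 h (x axis) for the 43 mitosis genes and for all 9606 tested genes. The member curve lies to the right of the other at 24 h (medians 0.04 and 0.01) and to the left of it at 72 h (medians -0.04 and 0.01).

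Small shifts of sign ran through the list. At 24 h, 29 of 43 members (67.4%) were higher than at 0 h, where 55.7% of all genes were, and at 72 h, 14 of 43 (32.6%) were, against 53.3%. At 72 h against 24 h, 36 of 43 (83.7%) were lower, against 52.9% of all genes, with medians of -0.08 over the members and -0.01 over all genes. The contrasts share libraries and are not independent of each other. The median at 24 h turned to -0.01 without replicate 1 at 24 h. Without the same library the median at 72 h against 24 h was -0.03, and the median at 72 h against 0 h was -0.01 without replicate 2 at 72 h.

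Single libraries stood apart over the members. Replicate 1 at 24 h held the highest value of 21 of 43 members (48.8%; 28.9% of all genes), and replicate 2 at 72 h held the lowest value of 17 of 43 (39.5%; 16.8% of all genes). Members were on average 0.08 above their own 8-library mean on the log2 scale in replicate 1 at 24 h and -0.06 from it in replicate 2 at 72 h. The same averages were -0.0019 in replicate 2 at 24 h and 0.0031 in replicate 1 at 72 h. At 0 h, 30 of 43 members (69.8%; 65% of all genes) were higher in replicate 1 than in replicate 2. The same count was 34 of 43 (79.1%; 58.1% of all genes) at 24 h, 17 of 43 (39.5%; 48.5% of all genes) at 48 h and 33 of 43 (76.7%; 55% of all genes) at 72 h. The summed signal of the 45 members was 279 and 267.5 at 0 h, 294 and 279 at 24 h, 273 and 277.5 at 48 h, and 273 and 257 at 72 h. Without Ncapd2, which makes up the largest share of it, the sum was 198 and 190.2 at 0 h, 209 and 192.5 at 24 h, 192.9 and 193.4 at 48 h, and 194.6 and 186.5 at 72 h. In both sums the highest library was replicate 1 at 24 h and the lowest was replicate 2 at 72 h. By distance over the members, replicate 1 at 0 h was nearest to the other 0 h library, and the other 7 libraries were each nearest to a library of another time.

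**Figure D5:**
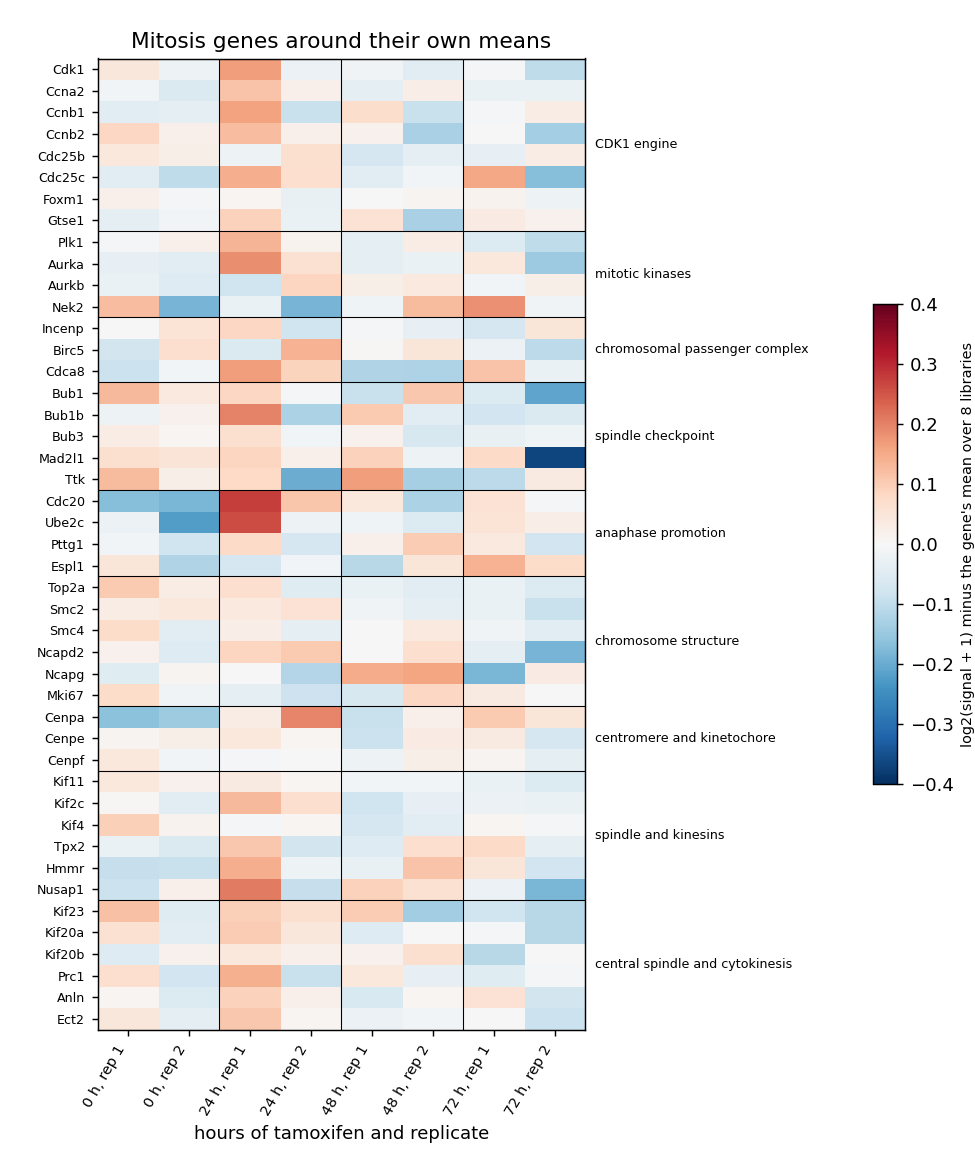
Deviation of each of the 45 mitosis genes (rows, by role) from its own mean over the 8 libraries on the log2 scale (colour), with libraries as columns from 0 to 72 h. The column of replicate 1 at 24 h is mostly above the mean and that of replicate 2 at 72 h mostly below it.

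The members varied together only loosely over the 8 libraries. Across 903 pairs of tested members the median Pearson correlation was 0.26, against 0.03 over pairs of all tested genes, and 69.4% of member pairs were positive. The libraries share a scaling, and n is 8. Against the mean of the other members, Ect2 was the most alike (r = 0.989), followed by Cdk1 (0.945) and Kif20a (0.928), and Aurkb was the least (-0.516). Among genes outside the list, Rer1 (r = 0.995, rho = 1), Tmem18 (r = 0.986, rho = 0.929) and Psenen (r = 0.981, rho = 0.929) were most like the mean of the members over the 8 libraries. Rer1 had its highest value, 7.304, in replicate 1 at 24 h and the lowest value, 5.28, in replicate 2 at 72 h.

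Other genes of the division cycle were read beside the members. Of 60 further mitosis genes, 54 were tested and 0 were called in any contrast, with 4, 3 and 4 of them at an unadjusted p of 0.05 from limma at 24, 48 and 72 h (7.41%, 5.56% and 7.41%, below the 13.2%, 10.5% and 15.7% of all genes). Their median differences were 0.04 at 24 h, 0.01 at 48 h and -0.03 at 72 h. Ska2, a kinetochore subunit, stood 0.21, 0.23 and 0.19 above 0 h at these times on the log2 scale, with limma adjusted p-values of 0.222, 0.166 and 0.161. All 24 S phase genes were tested and 0 were called, with medians of 0.06, 0.01 and -0.01 and with 4, 0 and 3 of them (16.7%, 0% and 12.5%) at an unadjusted p of 0.05 from limma. Of 7 CDK inhibitors, which hold cells in G1, 6 were tested and 0 were called by limma, with 1, 1 and 0 (16.7%, 16.7% and 0%) at an unadjusted p of 0.05. The gene that passed at 24 h was Cdkn2d (p19), which had 4.05 and 3.695 before tamoxifen, 4.62 and 4.99 after 24 h, 4.34 and 4.07 after 48 h, and 4.28 and 4.22 after 72 h. Both its 24 h libraries were above all the others, and its 24 h difference was 0.25 on the log2 scale (SE 0.06, limma adjusted p = 0.178). Cdkn1a (p21) had 11.4 and 10.8 before tamoxifen, 14.8 and 11.5 after 24 h, 10.5 and 11.1 after 48 h, and 11.4 and 10.9 after 72 h. Both its 24 h libraries were above both 0 h libraries, replicate 1 by more than replicate 2. The 24 h difference of Cdkn1a was 0.22 on the log2 scale (SE 0.11, limma adjusted p = 0.434). Ska2, Cdkn2d and Cdkn1a were singled out after their values were seen.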

How the data were processed

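RNA was measured in 8 libraries of AtT-20 ER-Pax7 cells, 2 each at 0, 24, 48 and 72 h of tamoxifen, grouped by their labels. RNA was column-purified and depleted of ribosomal RNA, per the labels' protocols; the labels' molecule field names genomic DNA, and the values were read as RNA. Each deposited value is taken as a signal, namely mean normalized coverage over a gene's merged exons. Scaling, counting tool, strand setting and read depth are not given here in any source, so no counting error is given and antisense or overlapping genes cannot be separated. Tools listed per the submitters' processing notes are HISAT2 2.2, SAMtools 1.12 and deepTools 3.5, with the builds mm10 and GRCm38.

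The test took genes whose mean signal reached 1 (9606 of 55401; 17726 genes were at 0 in every library). A limma 3.58.1 fit in R 4.3.3 on log2(signal + 1), with time group as the single term, used an intensity trend and left 4 residual degrees of freedom. Adjusted p-values are Benjamini-Hochberg values over the 9606 genes, called below 0.05, and all tests are two-sided. Differences on this scale understate changes of low genes. The procedure was tested on simulated data, but its recovery of changes as small as those of the members is not given here. The 15 alternatives varied the filter, pseudocount, scaling, trend, samples in the fit and replicate block and left out each library. Values are given for 22 members fixed by name and for the 5 with the smallest F test p, and other members are given by range or count. The members and lists were chosen with earlier results of these data known. Promoters are RefSeq sequences of GRCm38.p6, and gene coordinates are those of GENCODE M21 on GRCm38.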

Additional observations from a re-analysis of the deposited data

How the results depend on the processing

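The number of members called was 0 in each of the 4 contrasts and in the F test under all 15 alternatives. Over the same alternatives the number of all genes called by limma ran from 2 to 104 at 24 h, 2 to 98 at 48 h, 9 to 320 at 72 h, 0 to 61 at 72 h against 24 h and 3 to 167 in the F test. The median difference of the 43 members was -0.0095 at 24 h without replicate 1 at 24 h and 0.04 with all libraries. At 48 h it was -0.0045 with all libraries, 0.023 without replicate 1 at 0 h and 0.015 without replicate 1 at 48 h. The cause of these changes of sign was not tested. With 1 library left out at a time, when the lone sample of a group is assumed to vary like the others, the medians ran from -0.0095 to 0.071 at 24 h, from -0.04 to 0.02 at 48 h, from -0.05 to -0.01 at 72 h and from -0.11 to -0.03 at 72 h against 24 h. With the replicate number as a block, 0 members and 18, 24 and 154 of all genes were called at 24, 48 and 72 h, where 22, 53 and 193 were called without it. The labels do not say that equal numbers pair libraries, and deviations of same-numbered libraries correlated between times by -0.02 to 0.40 over all tested genes, so the block is an alternative only. Among the named members, Mad2l1 at 72 h depended most on 1 library, with differences of -0.43 to 0.02. The unknown depth and 2 libraries per group limit both the p-values and the intervals, which rest on the same spread between libraries.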
